A study of Homo sapiens with 4 samples.

Results

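The genes described here encode the parts that give epithelial cells their mechanical strength and seal the gaps between them: keratins, claudins, the proteins of desmosomes and the small proline-rich (SPRR) proteins of the cornified envelope. Members were all genes with a single symbol in the platform annotation that belonged to these families by name, each represented by its brightest probe set over the 4 arrays. This gave 97 members of 14884 named genes, with 47 keratins, 24 claudins, 13 desmosome genes, 11 SPRR genes and 2 antisense RNAs, DSG2-AS1 and CLDN10-AS1, that carry a family symbol. KRT18 was the 1 member with a second probe set. Several family members, among them KRT6A, KRT6B, KRT17 and KRT34, had no probe set with their symbol alone and are not analysed here.

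RNA came from RWP-1 cells, an established human pancreatic cancer line, in 2 groups: cells treated with rGAL1 (n = 2 arrays) and cells given no treatment, labelled Ctrl (n = 2 arrays). rGAL1 is taken to be recombinant galectin-1, a lectin that binds galactose-containing sugars on cell surfaces; dose, time and vehicle are not given in the labels. Single-channel oligonucleotide arrays were hybridised with label made from 100 ng of total RNA each, per the labels. Whether a group's arrays stem from separate cultures is not stated, so the spread behind each p-value may be technical. The array rGAL1 2 is placed in the rGAL1 group by its title and source name, and its treatment field reads as untreated; differences of single members that change much when it is moved to the Ctrl group are given both ways.

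Keratins are intermediate filament proteins that assemble as pairs of an acidic type I and a basic type II chain. Simple epithelia such as pancreatic ducts use KRT8 with KRT18 and KRT7 with KRT19. The basal layer of stratified epithelia uses KRT5 with KRT14, and cells moving towards cornification switch to KRT1 and KRT10 before SPRR proteins are cross-linked beneath their membrane. Filaments are anchored at desmosomes, where the cadherins DSG and DSC bind the neighbouring cell and plakoglobin (JUP), plakophilins (PKP) and desmoplakin (DSP) link them to keratin. Claudins are the membrane proteins of tight junctions; some seal the space between cells and others form channels for ions or water. Pancreatic cancers of the squamous or basal-like kind express basal and cornified genes beside or in place of the ductal ones, which is why the 3 programmes are set side by side here.

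With or without rGAL1, RWP-1 cells carried a bright simple ductal programme and basal genes of mixed level. The cornified programme was dim, SPRR1B and a few relatives apart. Values are log2 expression from RMA. Each is a probe set's own signal, and probe sets differ in how well they bind, so a level places a gene on the array's scale and does not rank transcripts by abundance. The median over all probe sets, 4.70, is used as the dim level. All 10 simple ductal genes (KRT7, KRT8, KRT18, KRT19, DSC2, DSG2, PKP2, CLDN3, CLDN4 and CLDN7) lay above it, and 7 of these 10 were over the 95th percentile of all probe sets. Of 8 basal genes, 6 were above the dim level and 1, DSC3, was over the 95th percentile. Of 18 cornified genes, 7 were above the dim level and 0 were over the 90th percentile. For comparison, 71.8% of all named genes were above the dim level, so the share of basal genes above it, 75%, was close to that of named genes. The median level of the simple ductal genes was 9.23 in rGAL1 and 9.24 in Ctrl, that of the basal genes 5.36 in rGAL1 and 5.45 in Ctrl, and that of the cornified genes 4.41 in rGAL1 and 4.36 in Ctrl.

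**Figure D1:**
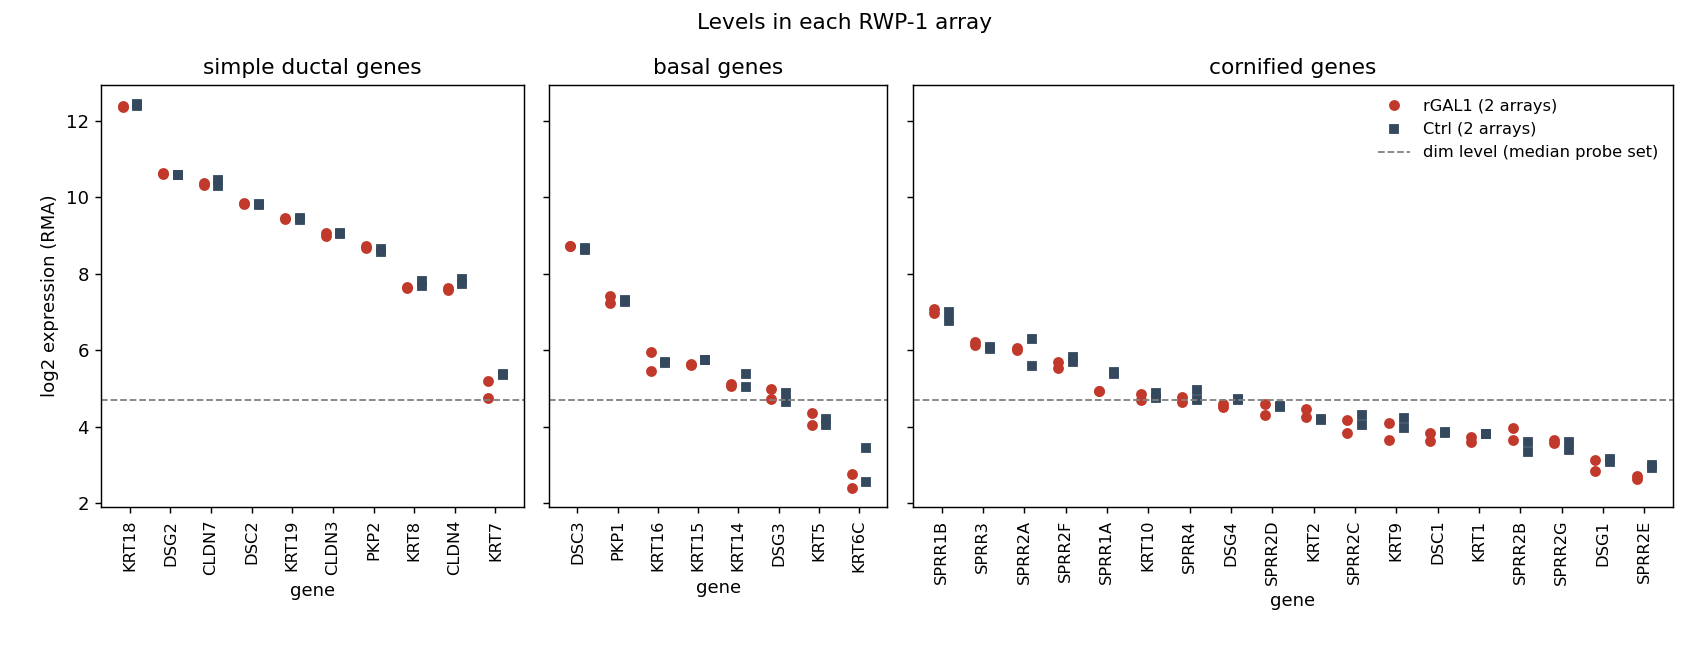
Log2 expression of the 10 simple ductal, 8 basal and 18 cornified genes in each array, with rGAL1 arrays as red circles left of Ctrl arrays as dark squares; the dashed line is the dim level of 4.70. In 9 of the 10 ductal genes all 4 arrays lie above 7.5, KRT7 is the exception, and most cornified genes lie at or below the line in both groups.

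No member passed in the comparison of rGAL1 with Ctrl (limma over all 53617 probe sets, Benjamini-Hochberg adjusted p under 0.05; smallest adjusted p among members 0.919). The same was true of the whole table, where 0% of probe sets were called; at an unadjusted p under 0.05 the table held 2807 probe sets, or 5.24%. At that unadjusted threshold there were 5 members, or 5.15%, against 2.98% of all named genes; 2 were higher in rGAL1 (1.42% of named genes) and 3 lower (1.57% of named genes). Both rGAL1 arrays lay above both Ctrl arrays in 13 members (13.4%, against 20.2% of named genes), and below both in 22 members (22.7%, against 17.0%). In all, 48 members had a higher mean in rGAL1 (51.7% of named genes did) and 49 a lower one (48.3% of named genes), and the median difference was -0.0038 log2 units, against 0.0056 for all named genes. The difference between group means was larger than the gaps within both groups in 24 members, or 24.7%, a share close to the 24.9% of all named genes. For 73 members (75.3%, against 86.3% of named genes) the 95% interval of the difference lay inside a 1.5-fold change in either direction. For the other 24 members a change of that size is not excluded by the interval.

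The keratins of ducts were mostly steady. KRT18, the type I chain of simple epithelia, measured 12.37 and 12.36 in rGAL1 arrays and 12.38 and 12.44 in Ctrl arrays. Its difference was -0.047 (SE 0.099, 95% interval -0.30 to 0.21). Its second probe set was much dimmer, at a mean of 9.03, and gave -0.10 (SE 0.10). Which of these probe sets reads KRT18 better was not tested. KRT19, a ductal type I keratin, measured 9.44 in each rGAL1 array and 9.39 and 9.45 in Ctrl arrays, so the groups overlapped, with a difference of 0.022 (95% interval -0.24 to 0.28). KRT8, the type II partner of KRT18, measured 7.64 and 7.66 in rGAL1 and 7.81 and 7.68 in Ctrl, a difference of -0.098 (SE 0.11).

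KRT7 went against the ductal label in level and varied most among these keratins. It measured 4.76 and 5.20 in rGAL1 arrays and 5.37 and 5.36 in Ctrl arrays, percentile 59.5 of all probe sets, where KRT19 stood at percentile 97.4. The rGAL1 arrays lay below the Ctrl arrays but also apart from each other, and the difference of -0.38 (SE 0.17, 95% interval -0.83 to 0.07) did not pass (limma adjusted p = 0.919). It was -0.16 without rGAL1 1, -0.60 without rGAL1 2 and -0.55 with rGAL1 2 moved to Ctrl (limma, unadjusted p = 0.0101). KRT20, a keratin of intestinal and gastric epithelium, was below the dim level, at 4.48 and 4.34 in rGAL1 and 4.62 and 4.48 in Ctrl.

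Outside the 3 programmes, KRT23 and KRT80 were also over the 90th percentile. KRT23, a type I keratin known from colon and pancreatic cancer cells, measured 12.17 and 12.15 in rGAL1 and 12.13 and 12.15 in Ctrl, percentile 99.6, with a difference of 0.028 (95% interval -0.23 to 0.28). KRT80, a type II keratin of many epithelia, measured 7.76 and 7.56 in rGAL1 and 7.81 and 7.87 in Ctrl, a difference of -0.18 (SE 0.12) that was 0.015 with rGAL1 2 counted as a control.

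Of 5 basal and activated keratins, 3 were above the dim level and 0 were over the 90th percentile. KRT5, the type II keratin that defines basal cells, lay below the dim level in every array, at 4.05 and 4.36 in rGAL1 and 4.04 and 4.20 in Ctrl. Its partner KRT14 measured 5.06 and 5.13 in rGAL1 and 5.38 and 5.03 in Ctrl, with overlapping groups. KRT15, another basal type I keratin, measured 5.61 and 5.65 in rGAL1 and 5.73 and 5.74 in Ctrl, a difference of -0.11 (SE 0.098). KRT16, which is induced in wounded and hyperproliferative epidermis, had a difference of 0.012 (95% interval -0.49 to 0.51), which became -0.24 without rGAL1 1 and 0.35 with rGAL1 2 moved to Ctrl. KRT6C, dim at a mean of 2.79, differed by -0.41 with an interval from -1.26 to 0.45, because the Ctrl arrays were themselves apart, at 2.55 and 3.44. The keratin genes of this class share long stretches of sequence, so a dim signal may include transcripts of relatives.

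Keratins of differentiated stratified epithelia and of hair were mostly dim. Of 13 differentiation keratins, 3 were above the dim level, and of 22 hair follicle keratins, 9 were. KRT13, a type I keratin of the suprabasal layers of the mouth and oesophagus, was the brightest of these, at 7.25 and 7.11 in rGAL1 and 7.39 and 7.41 in Ctrl. Its rGAL1 arrays lay below its Ctrl arrays, with a difference of -0.22 (SE 0.11, limma adjusted p = 0.919) that was -0.051 with rGAL1 2 moved to Ctrl. The epidermal pair was near or below the dim level, with KRT10 at 4.71 and 4.85 in rGAL1 and 4.74 and 4.88 in Ctrl, and KRT1 between 3.61 and 3.81 over the 4 arrays. KRT3, a keratin of the cornea, differed by -0.089 at a mean of 5.08.

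Among these keratins, 2 had an unadjusted p under 0.05. KRT32, a type I hair keratin, measured 4.13 and 4.39 in rGAL1 and 3.66 and 3.95 in Ctrl, a difference of 0.46 (SE 0.16). With rGAL1 2 moved to Ctrl that difference was 0.13 (limma, unadjusted p = 0.667), and without Ctrl 1 it was 0.31. KRT12, the corneal partner of KRT3, measured 3.26 and 2.99 in rGAL1 and 2.75 and 2.81 in Ctrl, a difference of 0.35 (SE 0.13), of 0.21 without rGAL1 1 and of 0.41 with rGAL1 2 moved to Ctrl. The groups did not overlap in either gene, every array of both was below the dim level, and each had an adjusted p of 0.919 (limma). The hair keratins KRT31 and KRT85, somewhat brighter, lay lower in both rGAL1 arrays, with differences of -0.25 (SE 0.11) and -0.26 (SE 0.10), while KRT36 and KRT39 lay higher, with differences of 0.17 (SE 0.11) and 0.18 (SE 0.097). With rGAL1 2 moved to Ctrl, KRT31 differed by -0.091 and KRT39 by 0.10. The hair class as a whole was split, with 11 higher and 11 lower.

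**Figure D2:**
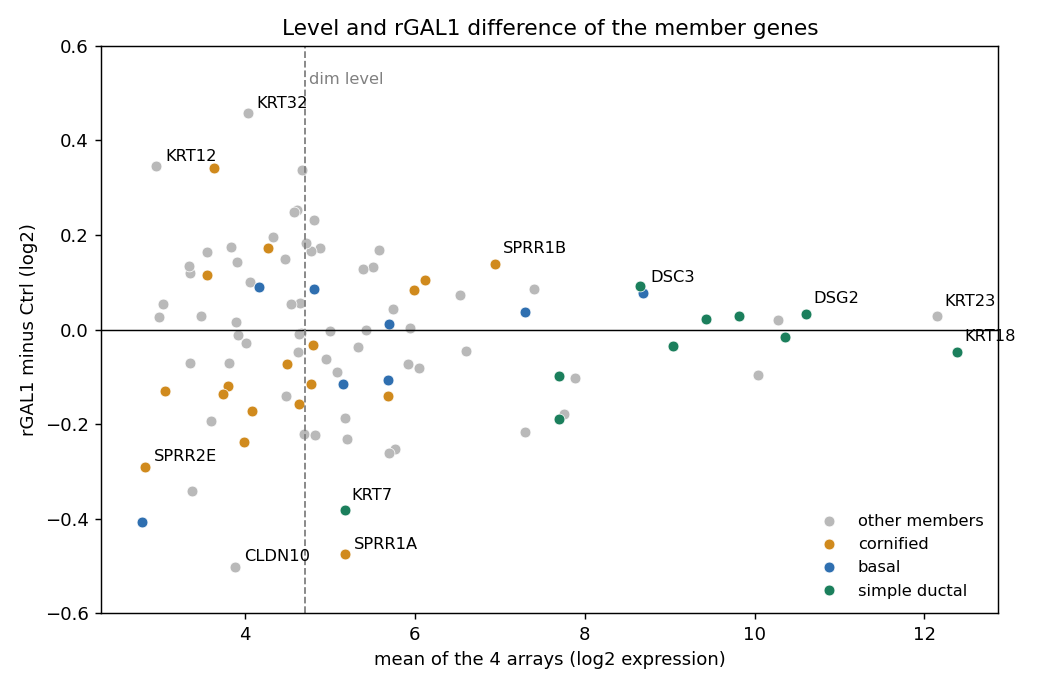
Difference of each of the 97 members, rGAL1 minus Ctrl on the log2 scale, against its mean over the 4 arrays, coloured by programme, with the dim level dashed. Differences beyond 0.25 in either direction occur only at means below 6, and the 13 members over the 90th percentile of all probe sets lie between -0.18 and 0.092.

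The size of a difference went with dimness. Members at or below the dim level had a median absolute difference of 0.14 and a median SE of 0.16, against 0.092 and 0.11 for members above it; named genes showed the same order, 0.11 at or below the dim level and 0.075 above it. Over the 13 members above the 90th percentile of all probe sets the median absolute difference was 0.034, against 0.054 for named genes above it. In all 13 the 95% interval lay inside a 1.5-fold change, as it did in 99.2% of those named genes.

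Desmosome genes held the narrowest range of differences of the 4 families. All 13 had intervals inside a 1.5-fold change, as did 86.3% of named genes and 92.5% of those above the dim level. Of the 13, 10 were above the dim level, against 21 of 47 keratins. Their differences ran from -0.16 to 0.092, with 8 higher and 5 lower. The cadherin pair of simple epithelia was bright and steady. DSG2 measured 10.63 and 10.60 in rGAL1 and 10.59 in each Ctrl array, a difference of 0.032 (SE 0.097). DSC2 measured 9.85 and 9.83 in rGAL1 and 9.82 and 9.80 in Ctrl, a difference of 0.030 (SE 0.097). The groups did not overlap in these genes, but the separation was a few hundredths of a log2 unit.

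Cadherins of stratified epithelia were divided. DSC3, a basal-layer desmocollin, was bright at 8.72 in each rGAL1 array and 8.67 and 8.62 in Ctrl arrays, percentile 95.4, with a difference of 0.077 (SE 0.098). DSG3, its basal partner and the antigen of pemphigus vulgaris, was near the dim level, at 5.0 and 4.71 in rGAL1 and 4.88 and 4.66 in Ctrl. The cornified-layer cadherins DSC1 and DSG1 lay below the dim level in every array, and the hair cadherin DSG4 stood next to it, at 4.61 and 4.51 in rGAL1 and 4.71 and 4.72 in Ctrl.

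All 6 plaque genes were above the dim level. DSP, which ties the plaque to keratin, measured 10.25 and 10.32 in rGAL1 and 10.27 in each Ctrl array, a difference of 0.021 (SE 0.099). JUP, shared with adherens junctions, measured 9.99 and 10.01 in rGAL1 and 10.05 and 10.14 in Ctrl, a difference of -0.096 (SE 0.10). Among the plakophilins, PKP2 of simple epithelia differed by 0.092 (SE 0.10), PKP3 by -0.10 (SE 0.10), PKP4 by 0.085 and PKP1, the stratified form, by 0.037. PKP1 measured 7.40 and 7.24 in rGAL1 and 7.25 and 7.32 in Ctrl, so its groups overlapped. With rGAL1 2 moved to Ctrl the PKP1 difference was 0.14.

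Of 24 claudins, 16 were above the dim level, and CLDN7, CLDN3 and CLDN4 had the highest signals. CLDN7, an epithelial claudin, measured 10.32 and 10.37 in rGAL1 and 10.28 and 10.44 in Ctrl, a difference of -0.015 (95% interval -0.30 to 0.27). CLDN3, a sealing claudin, measured 9.07 and 8.98 in rGAL1 and 9.04 and 9.07 in Ctrl, a difference of -0.034 (SE 0.10). CLDN4, its close relative and like it a receptor of a clostridial enterotoxin, was lower in both rGAL1 arrays, at 7.63 and 7.56, against 7.72 and 7.85 in Ctrl arrays, and the difference of -0.19 (SE 0.11, 95% interval -0.47 to 0.09) did not pass. It was -0.079 with rGAL1 2 moved to Ctrl. The remaining 21 claudins had means from 2.98 to 6.61.

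Of 9 sealing claudins, 4 were higher and 5 lower in rGAL1, with a median difference of -0.034. CLDN18, a gastric claudin gained by many pancreatic tumours, measured 5.19 and 4.97 in rGAL1 and 5.23 and 5.39 in Ctrl, a difference of -0.23 (SE 0.13). That difference was -0.12 without rGAL1 2 and -0.0060 with rGAL1 2 moved to Ctrl. CLDN1, a claudin of skin and many glands, measured 5.53 and 5.38 in rGAL1 and 5.54 and 5.12 in Ctrl, with overlapping groups.

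Of 5 channel claudins, 3 had higher and 2 lower means in rGAL1. The groups did not overlap in 2 of them, with rGAL1 lower (17.0% of named genes), and in 0 with rGAL1 higher (20.2% of named genes). CLDN10, which forms ion channels, measured 3.71 and 3.55 in rGAL1 and 3.99 and 4.27 in Ctrl, all below the dim level. Its difference of -0.50 (SE 0.14) was the most negative of all members and did not pass (limma, unadjusted p = 0.0177, adjusted p = 0.919); it was -0.37 without Ctrl 2 and -0.23 with rGAL1 2 moved to Ctrl (unadjusted p = 0.467, limma). Its antisense neighbour CLDN10-AS1 differed by 0.054, at a mean of 3.03; strand is not stated for these probe sets, so the pair may not be fully separate. CLDN2, which forms cation and water channels, measured 5.11 and 5.05 in rGAL1 and 5.23 and 5.31 in Ctrl, a difference of -0.19 (SE 0.10) that was -0.088 with rGAL1 2 moved to Ctrl. CLDN15 differed by 0.0023 (SE 0.14), or by 0.18 with rGAL1 2 moved to Ctrl.

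**Figure D3:**
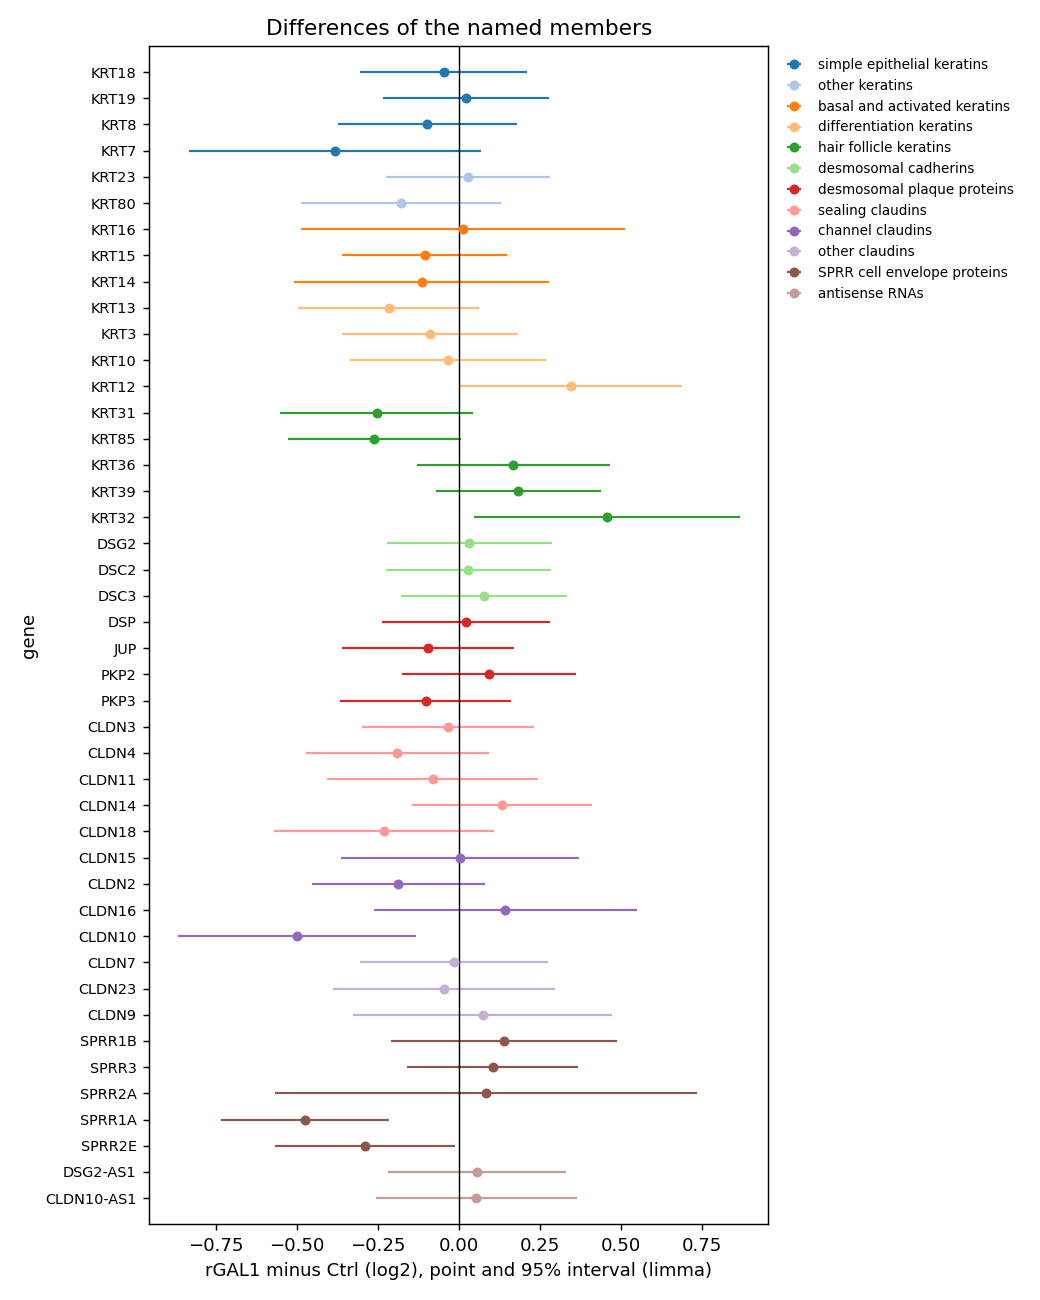
Differences of the 44 named members (log2 units, rGAL1 minus Ctrl) and their 95% intervals from limma, coloured by class. The intervals of SPRR1A, SPRR2E, CLDN10, KRT12 and KRT32 exclude 0 before adjustment for the number of probe sets, and none passes after it.

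SPRR1A gave the smallest p of all members. It encodes a proline-rich precursor of the cornified envelope and measured 4.93 and 4.94 in rGAL1 arrays, against 5.44 and 5.38 in Ctrl arrays. Both rGAL1 arrays were lower by more than the gap between arrays of either group. The difference was -0.48 (SE 0.099, 95% interval -0.73 to -0.22), a 1.39-fold lower level that did not pass over the table (limma, unadjusted p = 0.00561, adjusted p = 0.919). It ranged from -0.51 to -0.44 when 1 array was left out and was -0.33 when rGAL1 2 was moved to the Ctrl group (unadjusted p = 0.211, limma).

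The value of its sister gene SPRR1B lay on the other side of 0. SPRR1B was the brightest cornified gene, at 6.96 and 7.07 in rGAL1 and 7.01 and 6.75 in Ctrl, with overlapping groups and a difference of 0.14 (SE 0.13, 95% interval -0.21 to 0.49), or 0.018 with rGAL1 2 moved to Ctrl. The contrast between the sisters was not tested. The 250 bases upstream of each gene's start are shown because these sister genes have related promoters and values on opposite sides of 0; they come from RefSeq (GRCh38.p14, plus strand), chr1:152983831-152984080 for SPRR1A and chr1:153030953-153031202 for SPRR1B. Capitals mark matches to TGANTCA, a loose form of the AP-1 consensus with any base at N, or TATAAA, the TATA box, searched on both strands.
SPRR1A: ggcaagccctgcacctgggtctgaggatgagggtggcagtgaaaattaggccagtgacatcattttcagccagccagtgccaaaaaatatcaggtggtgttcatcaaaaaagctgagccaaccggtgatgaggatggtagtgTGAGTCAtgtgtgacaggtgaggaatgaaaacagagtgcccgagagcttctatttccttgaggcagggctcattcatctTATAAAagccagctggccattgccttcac
SPRR1B: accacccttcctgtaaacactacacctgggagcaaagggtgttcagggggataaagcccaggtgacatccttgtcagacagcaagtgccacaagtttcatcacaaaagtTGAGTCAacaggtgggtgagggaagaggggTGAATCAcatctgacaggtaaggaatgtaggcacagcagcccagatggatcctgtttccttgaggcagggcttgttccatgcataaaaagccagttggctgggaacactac
Over 237 aligned bases, 171 were identical (72.2%). SPRR1A held 1 match to the loose AP-1 pattern, TGAGTCA, beginning 108 bases before the start, and a TATAAA beginning 29 bases before it. SPRR1B held 2 matches to that loose pattern, TGAGTCA and TGAATCA, beginning 141 and 111 bases before the start, and no exact TATAAA. Neither held the GC box GGGCGG, and no match overlapped another. Among 27305 promoters of the same length, 6.60% held TGANTCA, 11.1% held TATAAA and 42.3% held GGGCGG. AP-1 is a known regulator of SPRR1 genes in squamous cells; a match describes letters only.

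The SPRR genes, SPRR1A and SPRR1B included, went both ways, with 5 of 11 higher and 6 lower and a median difference of -0.072. SPRR3, an envelope protein of oesophagus, measured 6.21 and 6.13 in rGAL1 and 6.04 and 6.09 in Ctrl, a difference of 0.11 (SE 0.10). SPRR2A measured 6.06 and 6.0 in rGAL1 and 5.59 and 6.30 in Ctrl; the Ctrl arrays enclosed the rGAL1 ones, and the difference of 0.084 was -0.27 without Ctrl 1. SPRR2E, at percentile 9.83 of all probe sets, measured 2.72 and 2.63 in rGAL1 and 2.92 and 3.01 in Ctrl, a difference of -0.29 (SE 0.11, unadjusted p = 0.0433, limma adjusted p = 0.919). It was -0.13 with rGAL1 2 moved to Ctrl (unadjusted p = 0.520, limma). SPRR2B, also below the dim level at percentile 24.5, lay on the other side, at 3.66 and 3.95 in rGAL1 and 3.60 and 3.33 in Ctrl, a difference of 0.34 that was 0.033 with rGAL1 2 moved to Ctrl. The SPRR2 genes are near-identical copies, and their probe sets may share transcripts.

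Set side by side, 0 genes of any programme passed (limma), 2 cornified genes and 0 simple ductal or basal genes had an unadjusted p under 0.05 (2.98% of named genes did, and 5.36% of those at or below the dim level), and the medians lay near that of all named genes except for the cornified one. The simple ductal genes had 4 higher and 6 lower means in rGAL1 and a median difference of -0.024. The basal genes had 5 higher and 3 lower, with a median of 0.024. The cornified genes had 6 higher and 12 lower, with a median of -0.12, against 0.0056 for all named genes. That cornified median was -0.033 over the 7 members above the dim level, -0.090 without rGAL1 2, -0.026 with rGAL1 2 moved to Ctrl and 0.0025 without rGAL1 1. Members share the same arrays, so their number is no measure of replication.

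**Figure D4:**
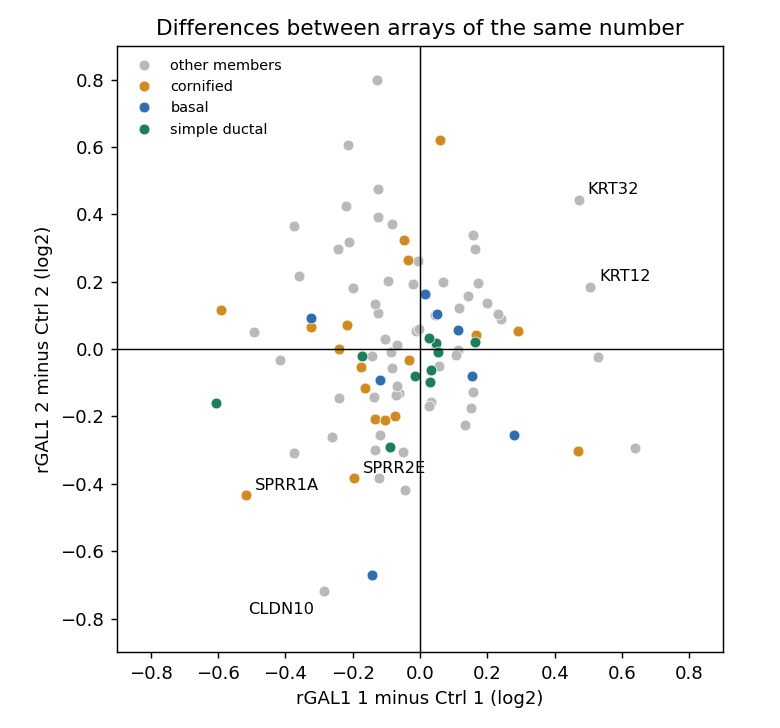
Difference between rGAL1 2 and Ctrl 2 against the difference between rGAL1 1 and Ctrl 1 for each member, on the log2 scale, coloured by programme. KRT7, at -0.61 and -0.16, and CLDN4 lie farthest from 0 among the simple ductal genes, and SPRR1A lies at -0.52 and -0.43.

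Neighbouring genes of the same structures, from lists chosen together with the members, also held no call. Of 14 measured tight junction partners, 11 had higher means in rGAL1 and 3 lower, with a median difference of 0.031 and 0 at an unadjusted p under 0.05 (limma). TJP1, the scaffold that claudins bind, was at 8.99 with a difference of 0.024, and PATJ, a polarity scaffold, at 8.03 with 0.19. Of 6 adherens junction genes, 4 were higher and 2 lower. The epithelial transcription factors had 7 higher and 5 lower of 12, with a median of 0.036; EHF, an ETS factor of glandular epithelia, was at 9.31 and ESRP1, an epithelial splicing regulator, at 8.41. TP63, the master factor of basal cells, and CDH1 had no probe set with their symbol alone and are not analysed here.

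Of 19 measured plakins and other envelope genes, 9 were higher and 10 lower, with a median of -0.012. The plakins PLEC, PPL and MACF1 were over the 90th percentile. At an unadjusted p under 0.05 (limma) were S100A7, psoriasin, dim with a difference of 0.53 (SE 0.11), and LCE3D, a late envelope protein, dim with a difference of -0.49 (SE 0.14). They made up 10.5% of the list, against 2.98% of all named genes and 5.36% of those at or below the dim level. The mesenchymal genes had 5 of 7 higher, with a median of 0.11 and 0 at an unadjusted p under 0.05; VIM was at 6.11, and FN1 at 8.59.

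Ductal and other cell type markers were checked beside these results. EPCAM, at a mean of 9.93, and SOX9, at 10.31, were bright, while CEACAM6 and TSPAN8 were below the dim level. The fibroblast markers LUM and DCN lay below it in every array, with median levels of 3.24 and 3.12 in the rGAL1 arrays and 3.14 in each Ctrl array, and the endothelial markers had 1 of 3 above it. The leukocyte list kept 2 of 6 markers, CD14 and CSF1R, both above the dim level, at 4.99 and 5.19. The acinar list kept 5 of 8, of which 4 were above the dim level, with 3 higher and 2 lower means in rGAL1. CTRB1 had the largest acinar difference, 0.61, and did not pass (limma adjusted p = 0.919). The part of these markers in the results was not tested. In these bulk samples fewer cells of a type and less RNA per cell cannot be told apart.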

How the data were processed

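The deposited values are log2 expression per probe set on 4 single-channel arrays, 2 with rGAL1 and 2 Ctrl, made by the authors with RMA (limma is also named), per the submitters' processing notes. Versions, settings and genome build: not given in the sources used here. This method subtracts background, equalises the arrays and combines the probes of a set, which shrinks differences at dim probe sets. Of 53617 probe sets, 16098 had 1 symbol in the platform annotation. The other 37519 had no symbol or several and were not assigned to a gene. No detection call was given; the dim level is the median of the probe sets' means. The number of arrays limits the precision.

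Differences are rGAL1 minus Ctrl from limma 3.58.1 in R 4.3.3 (lmFit, eBayes, default prior, no block), fitted to all 53617 probe sets with 2 residual and 2.75 prior degrees of freedom, two-sided, with Benjamini-Hochberg adjustment. The script was tested on simulated data. Groups and replicate numbers came from titles. Around the group means, arrays with the same number did not deviate together over all probe sets (r = -0.048), so numbers were not taken as pairs.

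Members and lists were chosen with earlier results of these data known. Named were KRT7, KRT8, KRT18 and KRT19, the 3 brightest of each class, up to 2 per class and direction with the largest differences among members above the dim level whose groups did not overlap, and members at an unadjusted p under 0.05, with further members named for their role. Alternatives were the normalization, the filter, the probe set rule, the prior, the conflicting label, each array left out and the replicate block. Promoter sequences are from RefSeq (GRCh38.p14).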

Additional observations from a re-analysis of the deposited data

How the results depend on the processing

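In all 12 alternatives 0 members passed an adjusted p under 0.05 (limma), also with any single array left out (0 to 0) and with the replicate block (0). Under the replicate block 4 members had an unadjusted p under 0.05, against 5 in the fit reported, with the same differences by construction. The count at an unadjusted p under 0.05 (limma) was 3 with only probe sets above the dim level, where 53 members were tested. It was higher with other priors, at 6 with an intensity trend in the prior and 7 with the prior from probe sets with 1 symbol. Members with rGAL1 arrays above all Ctrl arrays numbered 13, 22 with rGAL1 2 counted as a control and 26 to 34 without 1 array. Those with rGAL1 arrays below all Ctrl arrays numbered 22, 30 with rGAL1 2 counted as a control and 33 to 41 without 1 array. Without 1 array fewer arrays have to separate, and with rGAL1 2 moved only 1 rGAL1 array has to. The median over all members, -0.0038, was -0.040 with rGAL1 2 counted as a control and -0.038 to 0.018 without 1 array, and it was 0.010 after centring the arrays on their medians. The cornified median, -0.12, was -0.033 above the dim level, where 7 of 18 genes remained, -0.026 with rGAL1 2 counted as a control and -0.11 to 0.0025 without 1 array, the last without rGAL1 1. The basal median, 0.024, ran from -0.070 without rGAL1 1 to 0.033 without Ctrl 2, and the simple ductal median, -0.024, from -0.041 to 0.00055. Except where stated, the cause was not tested. Of 44 named members, 28 kept the sign of their difference in every alternative run. SPRR1A, CLDN10, KRT7, KRT12, KRT32 and SPRR2E were among them, but the groups of these genes did not overlap. Leaving out 1 array therefore could not change their sign, and the other priors and the block leave every difference as it was. A kept sign in these genes thus says little. With 1 array in a group, that array is assumed to vary like the others.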

Other observations

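Over the 97 members, 2 arrays of the same group were about as far apart as 2 arrays from different groups. The median absolute difference between arrays was 0.15 log2 units for the rGAL1 pair and 0.13 for the Ctrl pair, and between 0.13 and 0.16 for the 4 mixed pairs. The array rGAL1 2, whose labels conflict, differed from rGAL1 1 by a median of 0.153, from Ctrl 1 by 0.147 and from Ctrl 2 by 0.146. Over all named genes the same medians were 0.101, 0.105 and 0.117, lowest against rGAL1 1.

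Among members at or below the dim level, rGAL1 1 minus Ctrl 1 had a median of -0.11 and rGAL1 2 minus Ctrl 2 a median of 0.081, whereas above the dim level both were nearer 0, at -0.012 and -0.033. KRT78, a dim keratin chosen here after its values were seen, measured 4.54 and 5.15 in the rGAL1 arrays and 4.66 and 4.35 in the Ctrl arrays. Its difference of 0.34 therefore rested on rGAL1 2, and it was -0.18 with that array moved to Ctrl.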
